A study of Homo sapiens with 24 samples.

Results

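The mitosis and G2 genes described here are 35 genes that cells use to leave G2 and divide, chosen by name as a functional set out of 22260 genes read by the arrays. A gene entered through probe sets that carry its symbol alone in the platform annotation, which gave 661 probe sets for the 35 genes, between 5 and 45 each with a median of 19. All 35 genes passed the filter on low values, as did 11048 genes in all. The cells were AC16, an immortalized human line derived in part from adult ventricular cardiomyocytes, and all groups were first synchronized with 100 nM dexamethasone for 2 h. There were 8 groups of 3 arrays. In the order of hours after synchronization they were untreated cells at T0, cells at T4 with vehicle, 0.5 µM digoxin or 5 µM digoxin, untreated cells at T16, and cells at T20 with vehicle, 0.5 µM digoxin or 5 µM digoxin. Digoxin is a cardiac glycoside that blocks the sodium potassium pump. The sample labels place both digoxin collections 4 h after treatment, whereas the growth protocol counts 4, 16 and 20 h from treatment, so exposure at T20 could have been longer than at T4. The line is proliferating, and of 22 cardiomyocyte markers only GATA4, a cardiac transcription factor, lay above the filter (group means of the list 4.37 to 4.57 on the log2 scale), against 13 of 15 fibroblast markers (10.56 to 11.59). Whether the 3 samples of a group came from different cultures is not stated in the labels. The p-values therefore reflect the scatter among these samples alone, and that scatter may be technical.

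Entry into mitosis is driven by CDK1, a kinase that acts when bound to cyclin A or cyclin B and when CDC25 phosphatases remove the inhibitory phosphates placed by WEE1. Kinesins, Aurora and Polo-like kinases then build the spindle, the checkpoint proteins hold anaphase until kinetochores are attached, and the anaphase promoting complex with CDC20 ends mitosis by destroying cyclin B and securin. The genes of this set are transcribed mostly in G2 and mitosis, through CCAAT boxes bound by NF-Y and through cell cycle homology region (CHR) elements bound by the MuvB complex with B-MYB and FOXM1, and they are low in cells that have stopped dividing.

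Promoter windows show these elements in the genes that passed the test under digoxin on the median of probe sets, as in most genes of the set with a window. RefSeq windows on GRCh38.p14, from 250 bases before to 50 bases after an annotated start, were matched for 29 of the 35 genes (38 windows, some of them overlapping), and 6 genes had no entry. The CHR was searched as TTTGAA or TTCGAA and the CCAAT box as CCAAT, both on either strand. The motifs can overlap at their end bases, which they did not do in the windows printed here. At least 1 CHR stood in 25 of 38 windows (65.8%), against 16.4% of 35116 windows of all genes. At least 1 CCAAT box stood in 29 of 38 (76.3%), against 34.6% of all windows, and both motifs in 22 of 38 (57.9%), against 6.38%. Counted by gene, 20 of 29 (69%) had a window with both, against 7.85% of 27305 genes. A match is a description of letters and not a bound site. The windows of CDC20, CDC25C, PLK1 and PRC1, the genes that passed the test under digoxin on the median, are printed 5′ to 3′ on the gene's strand. CHR and CCAAT matches are in capitals. For CDC25C, 2 of 4 windows held a CHR. These 2 overlap and hold the same CHR, and 1 of them is shown.
CDC20 (chr1:43358731-43359030, plus strand): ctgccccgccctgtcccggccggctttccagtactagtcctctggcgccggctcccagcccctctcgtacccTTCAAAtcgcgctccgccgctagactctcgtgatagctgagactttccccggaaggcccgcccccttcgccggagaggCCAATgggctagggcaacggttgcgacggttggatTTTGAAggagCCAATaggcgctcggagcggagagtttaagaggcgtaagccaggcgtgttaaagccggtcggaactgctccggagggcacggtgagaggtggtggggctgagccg
CDC25C (chr5:138331755-138332054, minus strand): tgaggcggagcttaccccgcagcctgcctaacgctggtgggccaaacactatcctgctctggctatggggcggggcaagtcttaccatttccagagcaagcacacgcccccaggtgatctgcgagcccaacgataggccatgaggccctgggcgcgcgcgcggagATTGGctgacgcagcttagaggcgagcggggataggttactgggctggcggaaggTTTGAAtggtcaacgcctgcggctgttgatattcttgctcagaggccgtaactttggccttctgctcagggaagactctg
PLK1 (chr16:23678639-23678938, plus strand): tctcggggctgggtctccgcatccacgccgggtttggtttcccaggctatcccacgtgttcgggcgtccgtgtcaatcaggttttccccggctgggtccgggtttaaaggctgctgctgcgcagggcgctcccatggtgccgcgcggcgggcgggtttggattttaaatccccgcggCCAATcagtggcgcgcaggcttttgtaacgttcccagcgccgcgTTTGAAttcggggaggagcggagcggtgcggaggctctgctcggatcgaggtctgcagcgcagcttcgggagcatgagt
PRC1 (chr15:90994486-90994785, minus strand): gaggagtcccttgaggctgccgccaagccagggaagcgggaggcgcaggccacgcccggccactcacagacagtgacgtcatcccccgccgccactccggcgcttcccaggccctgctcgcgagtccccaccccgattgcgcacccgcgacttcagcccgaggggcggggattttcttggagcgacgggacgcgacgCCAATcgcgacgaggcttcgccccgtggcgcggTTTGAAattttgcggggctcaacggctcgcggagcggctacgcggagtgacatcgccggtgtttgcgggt
CDC20 had 2 CHR matches, of which 1 began 65 bases before the start and was followed by a CCAAT box at 55 bases before it. In CDC25C the CHR began 30 bases and the CCAAT box 85 bases before the start, in PLK1 29 and 73 bases, and in PRC1 20 and 53 bases. From the start of the other CDC25C window with a CHR, the same CHR lay 43 bases after and the same CCAAT box 12 bases before. The remaining CDC25C windows held neither motif. PRC1, whose value was higher under 5 µM digoxin at T20, and the 3 genes that were lower thus carried the same pair of motifs. Further genes passed under digoxin only with probe sets combined by median polish, described below. Of these, CCNA2 had no CHR match and BUB1B no CCAAT box, and the others had a window with both. The genes with no CHR match in their windows were CCNA2, CCNB1, AURKB, NEK2, CENPE, KIF20A and KIF2C. Of these, KIF20A and NEK2 passed between times on the median and the others did not. Genes with a CHR match, CDC25C and BUB1 among them, also passed between times.

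All values are log2 gene values, the median over the probe sets of a gene after quantile normalization, and differences are given with the standard error (SE) of a limma fit over all 24 arrays. Replicate arrays correlated at 0.9788 to 0.9879 across genes, against 0.9609 to 0.9858 between groups. The median SD within a group was 0.19 over the 35 genes and 0.32 over all genes tested. With the probe sets combined by median polish, which fits probe set and array effects together, it was 0.10 and 0.17. The shares of all genes given below thus come from genes with a larger median scatter. Counts by median polish are given beside those of the median because they were often over 1.5 times as high. The poly-A controls, bacterial RNAs added to the samples before labelling, averaged 12.00 in T16 cells, 11.48 in the T20 vehicle, 11.87 under 0.5 µM and 12.25 under 5 µM digoxin at T20. Centring the arrays on these controls moved the median difference of all genes to -0.73 for 5 µM digoxin against vehicle at T20 and to 0.43 for the T20 vehicle against T16, whereas the median of the set minus that of all genes was 0.09 and -0.28 on that scale and 0.11 and -0.31 on the scale used here. All changes below are therefore relative to the other genes, and the part of input RNA or of the amount per cell in them was not tested. In these bulk samples, fewer cells in G2 or mitosis and less of a gene's RNA per cell cannot be told apart.

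Averaged over the 35 genes in each array, the set stood highest in untreated T16 cells and lowest in the T20 vehicle. The mean was 14.84 ± 0.04 at T0, 14.83 ± 0.06 in the T4 vehicle, 14.91 ± 0.07 under 0.5 µM and 14.88 ± 0.05 under 5 µM digoxin at T4 (SD, n = 3 each). It was 15.06 ± 0.05 at T16, 14.74 ± 0.03 in the T20 vehicle, 14.83 ± 0.03 under 0.5 µM and 14.82 ± 0.04 under 5 µM digoxin at T20. The 3 T16 arrays (15.02 to 15.12) lay above every other array, and the 3 T20 digoxin arrays of each dose (14.80 to 14.87 and 14.79 to 14.86) lay above the 3 T20 vehicle arrays (14.70 to 14.77). The mean over all genes tested kept to 10.28 to 10.39 in the same 24 arrays. Gene by gene, 19 of 35 had their highest group mean at T16, against 18.2% of all genes tested, and 11 had their lowest in the T20 vehicle, against 13.5% of all genes. No gene of the set had its highest mean in the T20 vehicle or under 0.5 µM digoxin at T20, against 8.7% and 7.19% of all genes.

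**Figure D1:**
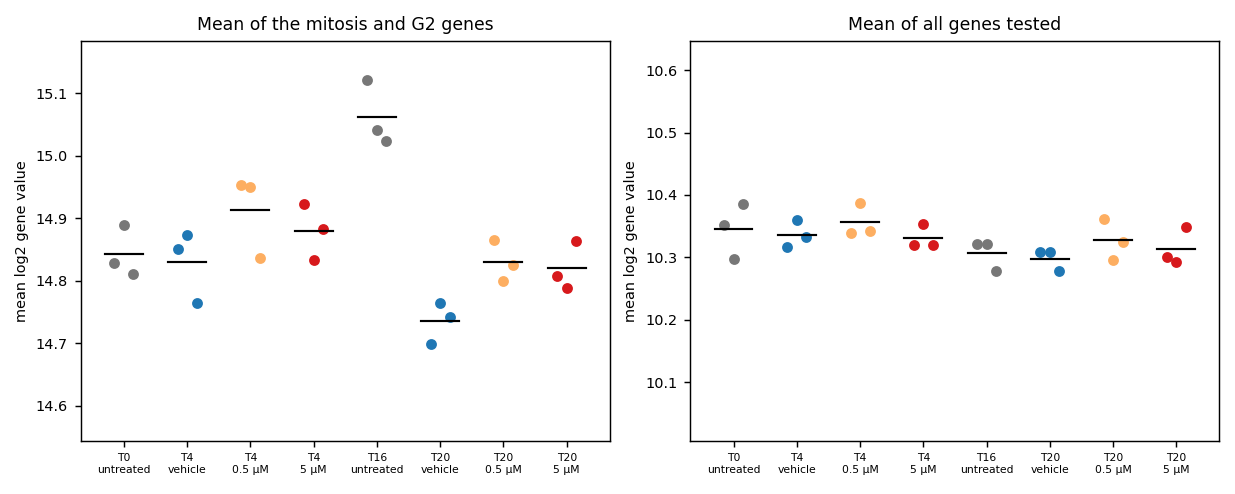
Mean log2 gene value in each array, over the 35 mitosis and G2 genes (left) and over all genes tested (right), with groups in order of hours after synchronization and of digoxin dose. Points are arrays, lines are group means and both axes span the same range. The T16 arrays lie at 15.02 to 15.12 on the left and the T20 vehicle arrays at 14.70 to 14.77, while all arrays on the right lie between 10.28 and 10.39.

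**Figure D2:**
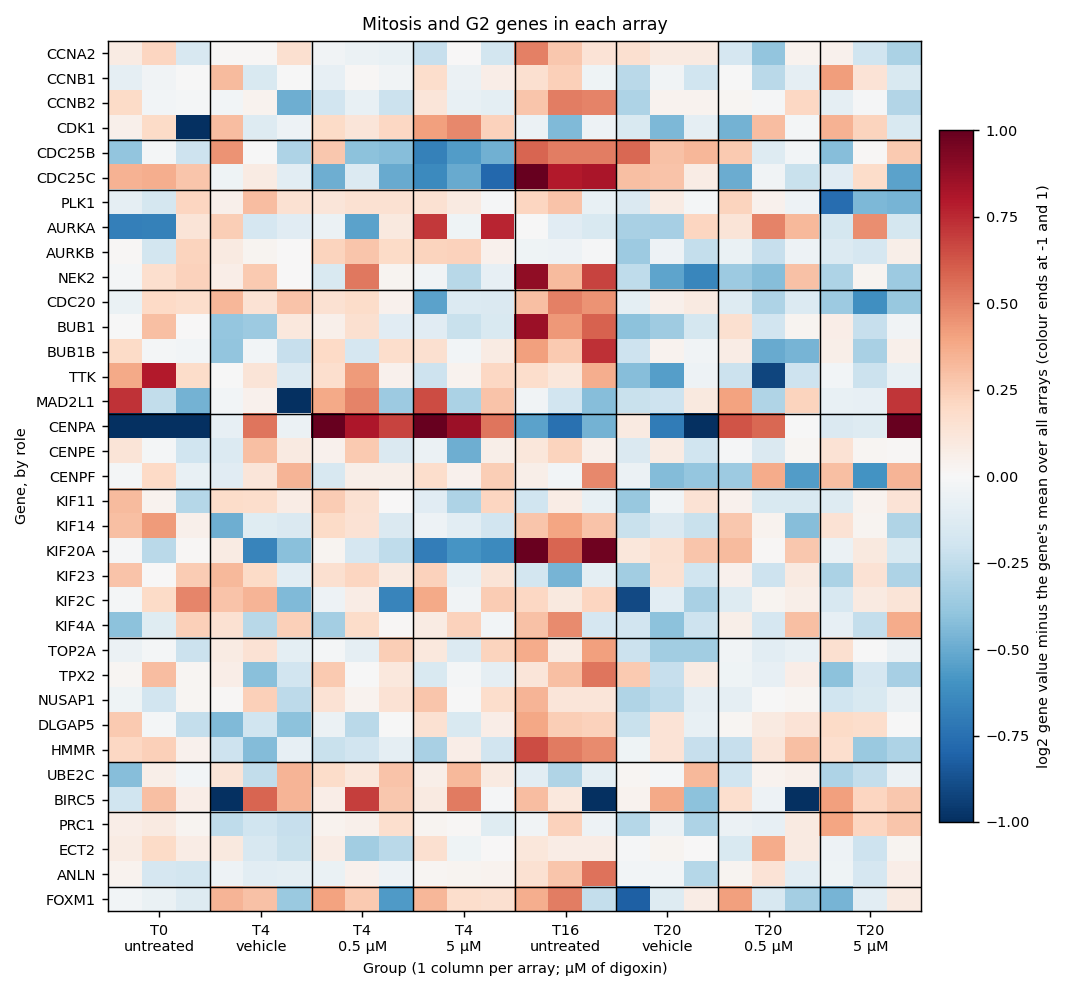
Log2 gene value of each of the 35 genes (rows, by role, with role groups separated by lines) in each of the 24 arrays (columns, by group), minus the gene's mean over all arrays. Red is above and blue below that mean, with the colour ending at -1 and 1. The T16 columns are mostly red, among them those of CDC25C, NEK2, BUB1 and KIF20A.

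At T4, 5 µM digoxin lowered CDC20 and CDC25C against vehicle, and no gene of the set passed the test upward. CDC20, which activates the anaphase promoting complex and is the target of the spindle checkpoint, had log2 values of 16.33, 16.73 and 16.72 under 5 µM digoxin, against 17.20, 17.01 and 17.15 in the T4 vehicle. All 3 digoxin arrays lay below the vehicle arrays. The difference was -0.53 ± 0.14 (adjusted p = 0.0256, limma with Benjamini-Hochberg adjustment over all genes tested), and 13 of its 16 probe sets were lower. CDC25C, a phosphatase that activates CDK1 at the entry into mitosis, had values of 10.11, 10.24 and 9.96 under 5 µM digoxin, against 10.70, 10.83 and 10.64 in vehicle. Its arrays did not overlap either, and the difference was -0.63 ± 0.18 (adjusted p = 0.0320, limma), with 16 of 20 probe sets lower. CDC25B, the related phosphatase that acts earlier in G2, had values of 12.29, 12.41 and 12.49 under 5 µM digoxin, against 13.42, 12.96 and 12.66 in vehicle. All digoxin arrays were below vehicle, but the vehicle arrays were spread and the difference of -0.61 ± 0.22 did not pass (adjusted p = 0.0888, limma).

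The count of 0 of 35 higher and 2 of 35 lower stands beside 3.74% of all genes called higher and 4.24% called lower, so the share of the set was close to that of all genes. The 3 digoxin arrays lay above the 3 vehicle arrays for 5 of 35 genes and below them for 5, against 14.5% and 13.9% of all genes. Groups that do not overlap were thus about as frequent in the set as elsewhere, or less. The median difference was 0.09 over the 35 genes and 0.02 over all genes, and 25 of 35 were above 0 (52.3% of all genes). By median polish 4 genes rose and 3 fell, against 9.78% and 13.5% of all genes. The 3 that fell were CDC20, CDC25C and CDC25B (-0.29 ± 0.09, adjusted p = 0.0221). The 4 that rose were MAD2L1, a checkpoint protein that binds CDC20 (0.42 ± 0.11), CENPF, a centromere and nuclear envelope protein (0.30 ± 0.10), ECT2, the exchange factor that activates RhoA for cytokinesis (0.25 ± 0.08), and DLGAP5, a microtubule-binding spindle protein (0.23 ± 0.07). Leaving out single arrays lost the calls on the median: CDC20 kept its call in 3 of 6 such fits and CDC25C in 1 of 6. With dim probe sets left out, CDC25C differed by -0.14 and did not pass (adjusted p = 0.818).

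**Figure D3:**
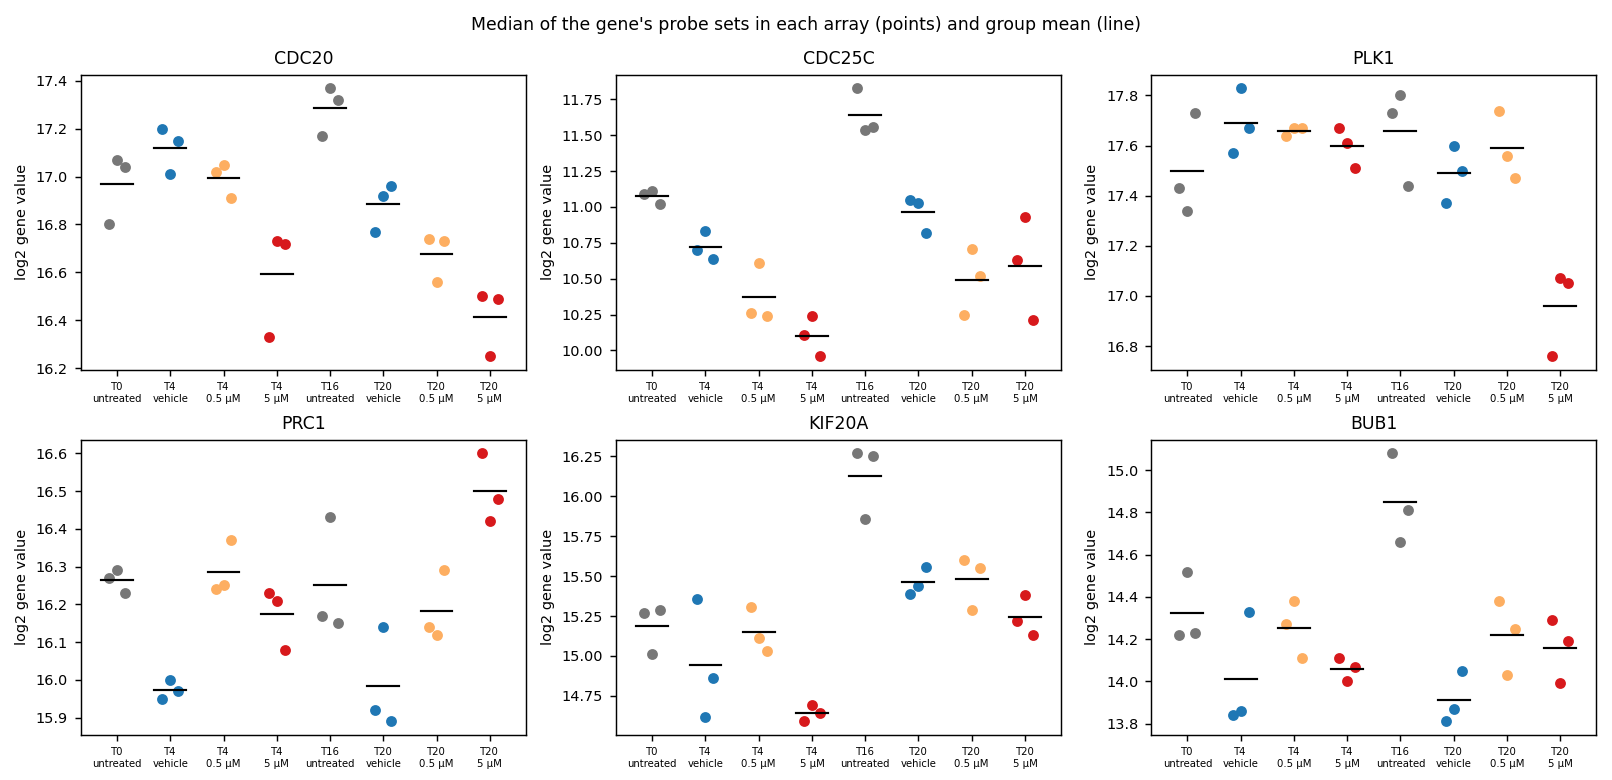
Log2 gene value (median of the gene's probe sets) of 6 genes of the set in each array, by group, with points for arrays and lines for group means. CDC20 and CDC25C are low under 5 µM digoxin at T4, PLK1 is low and PRC1 high under 5 µM at T20, and KIF20A and BUB1 peak in the T16 arrays. Each panel has its own axis, and levels are not comparable between genes.

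At T20, 5 µM digoxin lowered CDC20 and PLK1 and raised PRC1 against vehicle. CDC20 had values of 16.50, 16.25 and 16.49 under 5 µM digoxin, against 16.77, 16.92 and 16.96 in the T20 vehicle, a difference of -0.47 ± 0.14 (adjusted p = 0.0353, limma). The groups did not overlap, and 15 of its 16 probe sets were lower. PLK1, the Polo-like kinase that promotes mitotic entry, spindle assembly and cytokinesis, had values of 16.76, 17.07 and 17.05 under 5 µM digoxin, against 17.37, 17.60 and 17.50 in vehicle. It differed by -0.53 ± 0.15 (adjusted p = 0.0223, limma) and stood lower than in any of the other 21 arrays. By median polish its difference was -0.21 ± 0.09 and did not pass (adjusted p = 0.0857), with 11 of 16 probe sets lower, and 18.8% of its probe set values lay near the top of the scale. PRC1, which bundles antiparallel microtubules in the central spindle, had values of 16.60, 16.42 and 16.48 under 5 µM digoxin, against 15.92, 16.14 and 15.89 in vehicle. All digoxin arrays were above vehicle and the difference was 0.52 ± 0.13 (adjusted p = 0.0104, limma), with 16 of 20 probe sets higher.

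CDC25C, which fell at T4, had values of 10.63, 10.93 and 10.21 under 5 µM digoxin at T20, against 11.05, 11.03 and 10.82 in vehicle. Of the digoxin arrays 1 lay within the vehicle range, and the difference of -0.38 ± 0.18 did not pass on the median (adjusted p = 0.178), while by median polish it fell by 0.31 ± 0.09 (adjusted p = 0.0166). CDC25B had values of 12.54, 12.98 and 13.23 under 5 µM digoxin, against 13.54, 13.26 and 13.30 in vehicle, with a difference of -0.45 ± 0.22 (adjusted p = 0.187) and of -0.24 ± 0.09 by median polish (adjusted p = 0.0445). Both CDC25 phosphatases thus stood below vehicle at both times, and by median polish both passed at both times. CDC25A, their relative and not part of the set, is given below with the other regulators.

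In all, 1 of 35 genes rose and 2 fell on the median at T20, against 6.74% and 5.75% of all genes. The 3 digoxin arrays lay above the 3 vehicle arrays for 2 of 35 genes and below them for 6, against 15.2% and 13.5% of all genes. The median difference was 0.13 over the set and 0.03 over all genes, and 23 of 35 were above 0 (52.1% of all genes). By median polish 4 rose and 5 fell, against 13.5% and 14% of all genes. Those that rose were PRC1 (0.44 ± 0.08), CDK1 itself (0.38 ± 0.10, adjusted p = 0.00594), BUB1B, the checkpoint protein BUBR1 (0.26 ± 0.07), and DLGAP5 (0.23 ± 0.07). Those that fell were CDC20, CDC25C and CDC25B with CCNA2, cyclin A2 (-0.22 ± 0.08, adjusted p = 0.0494), and KIF11, the kinesin that pushes spindle poles apart (-0.22 ± 0.07, adjusted p = 0.0258). For KIF11 the median of probe sets gave 0.10 ± 0.18, of opposite sign, so its direction depended on how probe sets were combined. PRC1 kept its call in all 6 fits that left out 1 array, PLK1 in 3 of 6 and CDC20 in 1 of 6. With arrays centred on the poly-A controls PRC1 turned to -0.26, and on the hybridization controls to -0.04, neither past the test, while CDC20 and PLK1 stayed lower on every scale tried. With arrays centred on the median gene value CDC20 no longer passed, at -0.43 at T20 (adjusted p = 0.0558) and -0.46 at T4 (adjusted p = 0.0542).

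**Figure D4:**
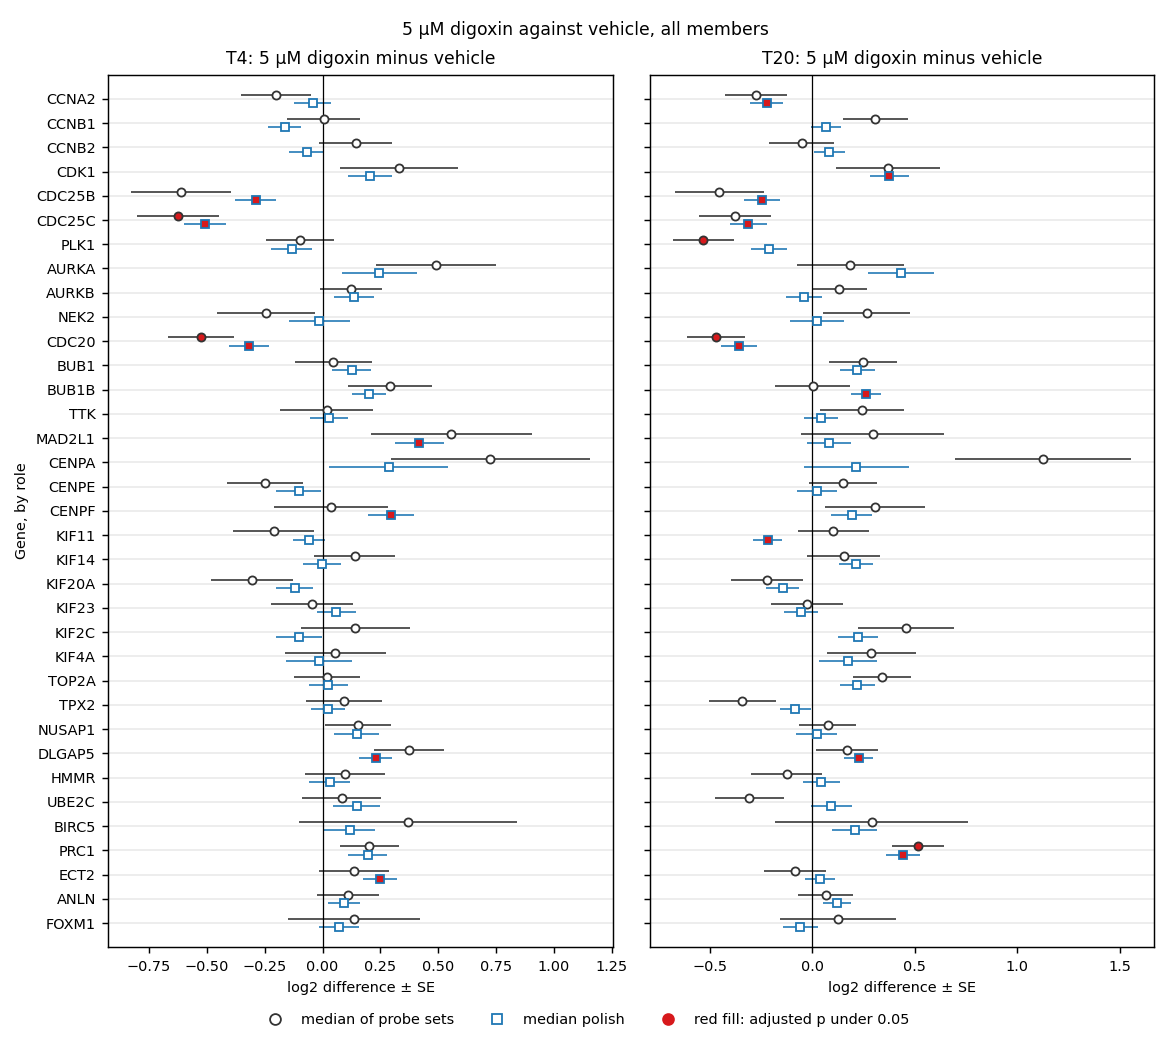
Log2 difference of each of the 35 genes between 5 µM digoxin and vehicle at T4 (left) and T20 (right), with bars of 1 SE from the limma fit. Circles are medians of probe sets, squares are median polish, and red fill marks an adjusted p under 0.05. CDC25B, CDC25C and CDC20 lie left of 0 in both panels and PRC1 right of 0 in both.

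Under 0.5 µM digoxin no gene of the set passed on the median at either time. At T4 the test called 1.51% of all genes higher and 1.2% lower. At an unadjusted p under 0.05, 1 gene of the set was higher and 0 lower, against 15.1% of all genes in either direction. At T20 it called 2.14% of all genes higher and 1.56% lower. There, 1 gene of the set in each direction had an unadjusted p under 0.05, against 17% of all genes in either direction. By median polish 1 gene rose at T4 (5.78% of all genes, with 4.98% lower) and 3 at T20 (6.42%, with 5.11% lower), and none fell. BUB1B rose at both times (0.32 ± 0.07 at T4, adjusted p = 0.00767, and 0.34 ± 0.07 at T20, adjusted p = 0.00439), with 20 and 21 of its 26 probe sets higher. At T20 its median of probe sets gave -0.23 ± 0.18, of opposite sign and not past the test. PRC1 (0.31 ± 0.08) and DLGAP5 (0.23 ± 0.07) were the other two at T20.

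The genes that passed at 5 µM did so at neither time at 0.5 µM on the median. CDC20 had values of 17.02, 17.05 and 16.91 under 0.5 µM digoxin at T4 and 16.74, 16.56 and 16.73 at T20. Its differences from vehicle were -0.13 (95% confidence interval -0.42 to 0.17) at T4 and -0.21 (-0.50 to 0.09) at T20. CDC25C had values of 10.26, 10.61 and 10.24 at T4 and 10.25, 10.71 and 10.52 at T20, all 6 below their vehicle arrays, with differences of -0.36 (-0.72 to 0.01) and -0.47 (-0.84 to -0.11). These intervals are not adjusted for the number of genes, and neither difference passed (adjusted p = 0.350 and 0.159, limma). In the set, all 3 arrays under 0.5 µM lay below vehicle for 2 genes at T4 and 4 at T20, against 9.72% and 8.68% of all genes.

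A difference between doses was not shown for any gene of the set. For 5 µM against 0.5 µM, 0 of 35 passed at T4 and at T20 (0.0272% and 0.434% of all genes, either direction), also by median polish (0.632% and 2.65%). At an unadjusted p under 0.05, 1 gene was higher and 2 lower at T4, and 1 higher and 1 lower at T20. The shares of all genes at that p were 8% and 11.3%, either direction. PLK1 came nearest at T20, where its values of 17.74, 17.56 and 17.47 under 0.5 µM lay above all 3 at 5 µM, with a difference of -0.63 ± 0.15 (adjusted p = 0.0687, limma). The change in the digoxin effect between T4 and T20 also passed for 0 of 35 genes at 5 µM (0.136% of all genes) and at 0.5 µM (0.00905%), and by median polish (0.722% and 0.0181%). At an unadjusted p under 0.05 it gave 0 genes of the set at 5 µM and 1, higher, at 0.5 µM (7.76% and 5.1% of all genes, either direction). For PLK1, which passed at T20 and differed by -0.10 ± 0.15 at T4, the effect at 5 µM at T20 minus that at T4 was -0.43 (95% confidence interval -0.87 to 0.00), and for CDC20 it was 0.06 (-0.36 to 0.48). These intervals do not show that the effects at the 2 times were alike.

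Without digoxin, the set stood higher at T16 than at T0. KIF20A, a kinesin of the central spindle, had values of 16.27, 15.86 and 16.25 at T16, against 15.27, 15.01 and 15.29 at T0. The groups lay apart and the difference of 0.94 ± 0.18 (adjusted p = 0.000936, limma) was that of 20 of its 21 probe sets. CDC25B had values of 13.55, 13.48 and 13.48 at T16, against 12.57, 12.95 and 12.76 at T0 (0.74 ± 0.22, adjusted p = 0.0243). CDC25C had values of 11.83, 11.54 and 11.56 at T16, against 11.09, 11.11 and 11.02 at T0 (0.57 ± 0.18, adjusted p = 0.0336). Both CDC25 genes, which were lower than vehicle under 5 µM digoxin, were thus higher at T16 than at T0, and no array of one time overlapped the other. BUB1, a checkpoint kinase at the kinetochore, had values of 15.08, 14.66 and 14.81 at T16, against 14.22, 14.52 and 14.23 at T0 (0.53 ± 0.17, adjusted p = 0.0347). ANLN, anillin, which links actin and septins in the cleavage furrow, had values of 18.49, 18.61 and 18.88 at T16, against 18.37, 18.17 and 18.15 at T0 (0.43 ± 0.14, adjusted p = 0.0360). Of its probe set values 14.7% lay near the top of the scale.

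These 5 of 35 rose and 0 fell, against 6.65% and 8.39% of all genes. The 3 T16 arrays lay above the 3 T0 arrays for 13 of the 35 genes, against 14% of all genes tested, and the median difference was 0.26 over the set and -0.02 over all genes. Of the 661 probe sets of the set, which are not independent, 74% were higher at T16, against 51.3% of those of all genes tested. By median polish 14 rose and 1 fell (15.7% and 17.5% of all genes). The 14 held cyclins A2 and B2 and CDK1, both CDC25 genes, the checkpoint genes BUB1, BUB1B and TTK, KIF20A, ANLN, and 4 of the 5 chromatin and spindle proteins, namely TOP2A, TPX2, DLGAP5 and HMMR. For TTK the median of probe sets was of opposite sign (-0.24 ± 0.20, not past the test). The 1 that fell was KIF23, the kinesin of the centralspindlin complex (-0.36 ± 0.08, adjusted p = 0.00225). KIF20A kept its call under all alternatives and all left-out arrays, whereas the other 4 lost it with arrays centred on the poly-A controls (adjusted p from 0.211 to 0.554). They also lost it without single arrays, T0 replicate 1 or 3 or T16 replicate 1 or 3 for CDC25B and BUB1, any T0 array or T16 replicate 1 or 3 for CDC25C, and replicate 2 or 3 of either group for ANLN (0.318 to 0.752, adjusted p from 0.0551 to 0.179).

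Between T16 and the T20 vehicle the set moved the other way, with 0 of 35 higher and 7 lower. The comparison shares the T16 arrays with the one before, so the 2 are not independent, and time and vehicle change together in it. NEK2, a kinase that separates centrosomes, had values of 11.46, 11.19 and 11.06 in the T20 vehicle, against 12.60, 12.03 and 12.39 at T16 (-1.10 ± 0.21, adjusted p = 0.00225, limma). BUB1 had values of 13.81, 13.87 and 14.05 in the T20 vehicle, against 15.08, 14.66 and 14.81 at T16 (-0.94 ± 0.17, adjusted p = 0.00111). Both were lower in all 3 vehicle arrays. CDC25C fell by 0.68 ± 0.18 (adjusted p = 0.0198) and KIF20A, at 15.39, 15.44 and 15.56 in the T20 vehicle, by 0.67 ± 0.18 (adjusted p = 0.0212). TOP2A, the topoisomerase that untangles sister chromatids, had values of 16.80, 16.67 and 16.67 in the T20 vehicle, against 17.39, 17.10 and 17.43 at T16 (-0.59 ± 0.14, adjusted p = 0.0120). HMMR, a spindle protein that is also a hyaluronan receptor, had values of 15.42, 15.60 and 15.23, against 16.11, 15.98 and 15.93 at T16 (-0.59 ± 0.17, adjusted p = 0.0397). ANLN had values of 18.31, 18.31 and 18.05 in the T20 vehicle (-0.44 ± 0.14, adjusted p = 0.0466).

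Over all genes the same comparison called 4.65% higher and 3.8% lower. The 3 T20 vehicle arrays lay below the 3 T16 arrays for 19 of 35 genes, against 14.4% of all genes. In the set 31 of 35 differences were below 0, while 47.2% of those of all genes were above 0. The median difference was -0.34 over the set and -0.03 over all genes. Of the probe sets of the set 18.8% were higher in the T20 vehicle, against 46.7% of those of all genes. By median polish 21 of 35 fell and none rose (12.1% lower and 11.9% higher over all genes). The fall was seen by that measure in all 5 chromatin and spindle proteins, in 4 of 5 checkpoint genes, in 3 of 4 of the cyclins and CDK1 and in 3 of 6 kinesins (KIF14, KIF20A and KIF4A). The 14 that did not pass were CCNB1, PLK1, AURKA, AURKB, MAD2L1, CENPA, CENPE, KIF11, KIF23, KIF2C, UBE2C, BIRC5, ECT2 and FOXM1. NEK2 and BUB1 kept their calls without any 1 array, and the other 5 lost theirs without single arrays (-0.66 to -0.33, adjusted p from 0.0513 to 0.209). These were T16 replicate 1 or vehicle replicate 3 for CDC25C, T16 replicate 1 or 3 for TOP2A, T16 replicate 1 or 3 or vehicle replicate 1 or 2 for KIF20A, any T16 array or vehicle replicate 1 or 3 for HMMR, and T16 replicate 2 or 3 or any vehicle array for ANLN. The poly-A controls were lower in the T20 vehicle (11.44 to 11.55) than at T16 (11.90 to 12.07). With arrays centred on them NEK2 alone of the 7 passed (-0.66, adjusted p = 0.0335), ANLN turned to 0.09 (adjusted p = 0.742), and UBE2C (0.76) and KIF23 (0.62) passed as higher.

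**Figure D5:**
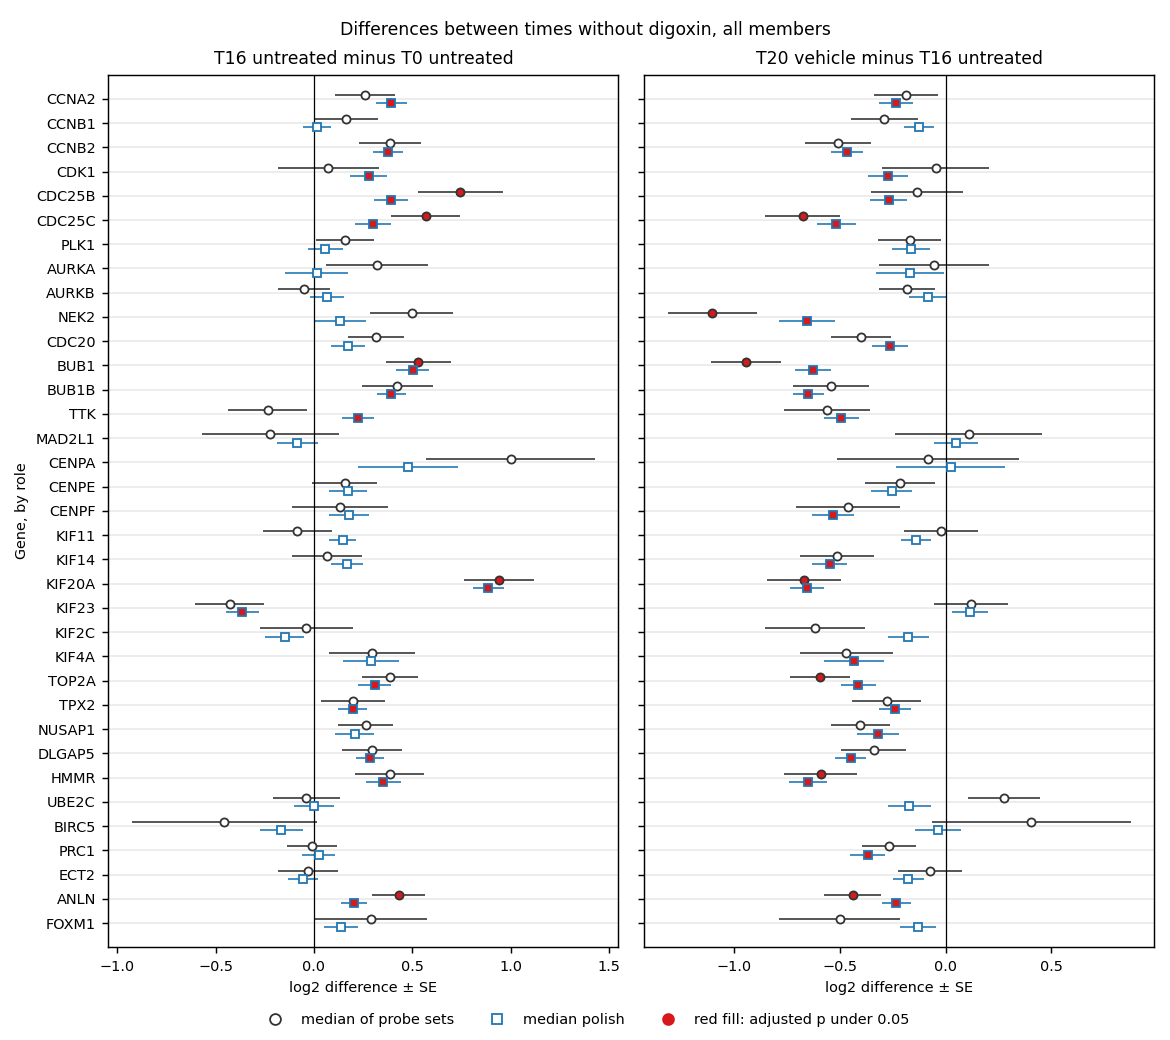
Log2 difference of each of the 35 genes between untreated cells at T16 and at T0 (left) and between the T20 vehicle and T16 (right), with bars of 1 SE. Circles are medians of probe sets, squares are median polish, and red fill marks an adjusted p under 0.05. KIF20A stands at 0.94 on the left, and 31 of 35 circles lie left of 0 on the right.

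In the first 4 h, between T0 and the T4 vehicle, 1 of 35 genes rose and none fell on the median, against 2.69% and 3.48% of all genes. The 1 was CENPA, the histone H3 variant of centromeres, at 8.91, 9.53 and 8.93 in the T4 vehicle, against 6.65, 7.92 and 7.65 at T0 (1.71 ± 0.43, adjusted p = 0.0196, limma). CENPA rested on 5 probe sets and had the lowest group means of the set, and without T0 replicate 1 its difference was 1.34 (adjusted p = 0.104), and without T4 vehicle replicate 2 it was 1.51 (adjusted p = 0.0925). By median polish CENPA rose (0.90 ± 0.26) and 7 genes fell (9.23% and 9.46% of all genes), ECT2 by 0.37 ± 0.08, CDC25C by 0.34 ± 0.09 and BUB1B, KIF14, PRC1, DLGAP5 and HMMR by less. PRC1, at 15.95, 16.00 and 15.97 in the T4 vehicle, was below all 3 T0 arrays (16.27, 16.29 and 16.23). Between the vehicle groups, T20 against T4, no gene of the set passed on the median (2.08% of all genes higher and 1.43% lower). At an unadjusted p under 0.05, 1 gene of the set was higher and 3 lower, against 17.4% of all genes in either direction. By median polish KIF20A rose by 0.36 ± 0.08 and TOP2A and KIF2C, a kinesin that takes microtubules apart, fell by 0.28 ± 0.08 and 0.32 ± 0.10 (6.95% and 7.86% of all genes).

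The role groups not yet described showed smaller or noisier differences under digoxin. Among the cyclins, CCNB1, cyclin B1, had values of 16.32, 16.04 and 15.75 under 5 µM digoxin at T20, against 15.63, 15.87 and 15.70 in vehicle, overlapping groups with a difference of 0.31 ± 0.16 (adjusted p = 0.230, limma). CENPA had values of 8.85, 8.86 and 10.66 under 5 µM digoxin at T20, against 9.08, 8.29 and 7.61 in vehicle, and 1 array carried most of the difference of 1.13 ± 0.43 (adjusted p = 0.0951). TOP2A, which was low in the T20 vehicle, had values of 17.18, 17.01 and 16.96 under 5 µM digoxin, all above vehicle, with a difference of 0.34 ± 0.14 that did not pass (adjusted p = 0.128). UBE2C, the ubiquitin-conjugating enzyme of the anaphase promoting complex, had values of 13.67, 13.74 and 13.92 under 5 µM digoxin, against 14.00, 13.96 and 14.30 in vehicle (-0.31 ± 0.17, adjusted p = 0.263), non-overlapping groups with median polish of opposite sign (0.09 ± 0.10). BIRC5, survivin, a subunit of the chromosome passenger complex read by 7 probe sets, differed by 0.29 ± 0.47. FOXM1, the forkhead factor that binds these promoters with MuvB, had values of 15.16, 15.52 and 15.72 under 5 µM digoxin, against 14.81, 15.50 and 15.70 in vehicle, a difference of 0.13 ± 0.29 (95% confidence interval -0.47 to 0.72). KIF20A and BUB1, the genes that stood out at T16, differed from vehicle at T20 by -0.22 ± 0.18 and 0.25 ± 0.17 under 5 µM digoxin and did not pass.

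The remaining genes of the set passed on the median in neither 5 µM comparison, and those given singly here had arrays that overlapped vehicle at both times. Among the kinases, AURKA, which matures the spindle poles, differed by 0.19 ± 0.26 at T20 and 0.49 ± 0.26 at T4, and AURKB, the kinase of the passenger complex, by 0.13 ± 0.13 and 0.12 ± 0.13. TTK, the MPS1 kinase at the top of the checkpoint, differed by 0.24 ± 0.20 at T20 and 0.02 ± 0.20 at T4. The 6 kinesins, KIF11, KIF14, KIF20A, KIF23, KIF2C and the chromosome-bound KIF4A, ranged from -0.22 to 0.46 at T20 and from -0.31 to 0.14 at T4. CENPE, a kinesin-like motor that carries chromosomes to the spindle equator, differed by 0.15 ± 0.17 and -0.25 ± 0.17. The 5 chromatin and spindle proteins ranged from -0.34 to 0.34 at T20, with TPX2, the activator of AURKA, lowest, and from 0.02 to 0.38 at T4. NUSAP1, a protein that bundles spindle microtubules, differed by 0.08 ± 0.14 at T20, and CCNB2, cyclin B2, by -0.05 ± 0.16.

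For 7 further lists of genes, counts are given on the median and then by median polish, which called more genes in most lists. The shares of all genes are those given for the same comparisons above. Of 22 further regulators of CDK1 and its cyclins, 5 rose and 1 fell under 5 µM digoxin at T20, and 2 rose and 2 fell at T4. By median polish 13 rose and 2 fell at T20 and 11 rose and 3 fell at T4. WEE1, the kinase that inhibits CDK1, rose by 1.46 ± 0.19 at T20 (adjusted p = 3.24e-05) and differed by 0.53 ± 0.19 at T4 (adjusted p = 0.0976, and 0.94 ± 0.10 by median polish, which passed). GADD45A, a stress-induced protein that can inhibit CDK1 with cyclin B, rose by 1.89 ± 0.36 at T20 (adjusted p = 0.00143). CDC25A, the CDC25 phosphatase that acts from G1 onward, rose by 1.5 ± 0.16 at T4 (adjusted p = 3.39e-06) and by 0.83 ± 0.16 at T20, whereas CDC25B and CDC25C stood below vehicle. Of 21 tested factors of G2 and mitotic transcription, 5 rose and 1 fell at T20 and 5 rose and none fell at T4, and by median polish 6 of 22 rose and 2 fell at T20 and 7 rose and none fell at T4. Among them E2F3, an activating E2F, rose by 1.77 ± 0.32 at T20 and 1.54 ± 0.32 at T4, NFYA, a subunit of the CCAAT-binding NF-Y, by 1.03 ± 0.20 and 0.87 ± 0.20, and E2F7, an E2F that represses, by 0.91 ± 0.16 at T20 (0.46 ± 0.16 at T4, adjusted p = 0.0819).

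Median differences of the 7 lists, on the median of probe sets, ran from -0.07 to 0.27 at T20 under 5 µM, against 0.13 in the set and 0.03 over all genes. Of 19 genes of the anaphase promoting complex and mitotic exit, 1 rose and 1 fell at T20 under 5 µM and 0 rose and 1 fell at T4, and by median polish 3 rose and 2 fell at T20 and 1 rose and 4 fell at T4. UBE2S, the enzyme that extends ubiquitin chains on the complex, rose by 2.09 ± 0.44 at T20, and CDC16, a subunit, fell by 0.61 ± 0.19 at T20 and 0.68 ± 0.19 at T4. Of 35 kinetochore and checkpoint genes outside the set, 4 rose and 4 fell at T20 and 1 rose and 1 fell at T4, MIS12 and SKA3. By median polish falls were more frequent than rises in this list, with 5 higher and 9 lower at T20 and 5 higher and 10 lower at T4. MIS12 rose by 0.80 ± 0.17 at T20, while SKA3 (-0.74 ± 0.17) and CENPT (-0.86 ± 0.20), all 3 parts of the kinetochore, fell. Of 22 genes of the passenger complex, cohesin and condensin, 1 rose and none fell at T20 and 2 rose at T4, with SMC1A, a cohesin subunit, among them at both times (0.62 ± 0.18 at T20). By median polish 3 rose at T20 and 2 at T4, and none fell. Of 36 spindle, centrosome and cytokinesis genes, 4 rose and 3 fell at T20 and 0 rose and 2 fell at T4, and by median polish 9 rose and 7 fell at T20 and 5 rose and 8 fell at T4. FAM83D, which brings a casein kinase to the spindle, fell by 0.99 ± 0.18 at T20 and KIF15, a kinesin that assists KIF11, by 0.67 ± 0.18. The third of the 3 falls was PIF1, a DNA helicase that the list also held (-1.13 ± 0.28). PIF1 did not pass at T20 by median polish (-0.14 ± 0.18, adjusted p = 0.623). Of 22 other proliferation genes, 1 rose and none fell at each time, H2AZ1, a histone variant, at T20 (0.92 ± 0.24). By median polish 4 rose and 2 fell at T20 and 3 rose and none fell at T4.

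Under 0.5 µM digoxin the 7 lists held at most 1 gene called in each direction at either time on the median. By median polish the CDK1 and cyclin list had 9 higher and 3 lower at T20 and 6 higher and 2 lower at T4. The transcription list had 4 higher at T20 and 6 at T4 with none lower, and the kinetochore list 5 higher and 1 lower at T20 and 2 higher and none lower at T4. The spindle, centrosome and cytokinesis list had 4 higher and 2 lower at T20 and 4 higher and 3 lower at T4. The anaphase promoting complex list had 1 higher and 1 lower at T20 and 0 higher and 2 lower at T4, the passenger, cohesin and condensin list 1 higher at each time, and the other proliferation genes none.

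Between T0 and T16, 6 of 36 spindle, centrosome and cytokinesis genes rose and none fell on the median, against 6.65% and 8.39% of all genes, and by median polish 12 rose and 2 fell, against 15.7% and 17.5%. In the CDK1 and cyclin list 2 rose and 5 fell, and by median polish 4 rose and 4 fell. In the kinetochore list 3 rose and 4 fell, and by median polish 8 rose and 7 fell. In the list of transcription factors 0 rose and 1 fell, and by median polish 2 rose and 3 fell. In that of the anaphase promoting complex 1 rose and 2 fell by either measure. In that of the passenger complex, cohesin and condensin 1 rose and none fell, and by median polish 1 rose and 4 fell. In that of other proliferation genes 0 rose and 2 fell, and by median polish 1 rose and 3 fell. The fibroblast markers moved with time as well, with 6 of 13 higher at T16 than at T0 on the median, 10 of 13 by median polish, and none lower by either. Their part in the differences of the set between these times was not tested.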

How the data were processed

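Each of 24 RNA samples of AC16 cells was read on a Human Gene 2.0 ST array. According to the design text, the authors normalized by Robust Multi-array Average in the GIANT tools of Galaxy and used limma. The sources used here give no versions, background method or genome build. The deposited values are log2 values per probe set, 352859 per array, from 1.28 to 19.93, with array medians of 6.25 to 6.38. Differences stay on that scale.

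Probe sets with exactly 1 symbol in the platform annotation (259224) were kept, 13116 with several and 80519 with none were left out, and 1726 symbols were updated to RefSeq. Values were quantile normalized, a gene's value was the median of its probe sets, and the test covered genes whose mean over all arrays reached 6.02, which is the median gene value. Tests used limma 3.58.1 (lmFit and eBayes, two-sided) in R 4.3.3 on all 24 arrays with 16 residual degrees of freedom. P-values were adjusted by Benjamini and Hochberg over 11048 genes (11076 for median polish) in each of 12 comparisons, with a threshold of 0.05. The fit was tested on simulated data, with 200 of 11048 genes changed between 5 µM digoxin and vehicle at T20. It recovered 2% of changes of 0.5 and 32% of changes of 1 on the log2 scale. Of its 36 calls 5.56% were false. A gene that did not pass is therefore not shown to be unchanged. The simulated comparison differed from the real one, which called 745 genes higher and 635 lower. Its scatter was that of all genes tested, with a median SD within a group of 0.32 against 0.19 in the set. The recovered shares are therefore not those of the set. The 3 arrays per group limit the precision.

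The members, the other lists and the tests were chosen with earlier results of these data known. A gene of the set is given in every sample if it is among the 4 largest called rises or falls of a digoxin against vehicle comparison, of T16 against T0 or of the T20 against the T4 vehicle. Where a role has none, its gene with the smallest adjusted p at T20 under 5 µM is given. NEK2, HMMR, ANLN, BIRC5 and genes called by median polish were named after their values were seen. Other lists give up to 3 genes with the smallest adjusted p at T20 under 5 µM. The labels give replicate numbers but no shared culture or day, and no pairing was used. Alternatives were median polish, other scalings, filters and fits, and each array left out in turn.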

Additional observations from a re-analysis of the deposited data

How the results depend on the processing

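Counts of genes of the set that passed depended on how probe sets were combined. By median polish 7 passed for 5 µM digoxin against vehicle at T4, 1 for 0.5 µM at T4, 9 for 5 µM at T20, 3 for 0.5 µM at T20, 15 for T16 against T0, 8 for the T4 vehicle against T0, 21 for the T20 vehicle against T16 and 3 for the T20 against the T4 vehicle, where the median gave 2, 0, 3, 0, 5, 1, 7 and 0. The 18 calls on the median all kept their direction by median polish, and 17 also passed, PLK1 at T20 being the exception. Centred on the poly-A controls, 24 passed for 5 µM and 3 for 0.5 µM digoxin at T20, 4 between the doses at T20, 2 for T16 against T0 and 3 for the T20 vehicle against T16. All genes shifted on that scale, with 6225 lower and 134 higher of 11028 for 5 µM at T20, 904 and 81 for 0.5 µM, 698 and 16 between the doses, 1498 and 279 for T16 against T0 and 73 and 2684 for the T20 vehicle against T16, so these counts are not particular to the set. Centred on the hybridization controls the same counts were 16, 3, 1, 1 and 3. Of all 11033 genes, 3961 were lower and 199 higher for 5 µM at T20, 999 and 95 for 0.5 µM and 54 and 12 between the doses. For T16 against T0, 886 were lower and 502 higher, and for the T20 vehicle against T16, 101 and 1928. PRC1 at T20 under 5 µM reversed to -0.26 and -0.039 on these scales, and ANLN in the T20 vehicle against T16 to 0.089 by the poly-A controls. Centred on the median gene value, and with dim probe sets left out, 1 passed for 5 µM at T4. Over all genes the former gave 499 higher and 400 lower of 11051, and the latter 469 and 485 of 10330. With trend and robust fitting 12 passed for the T20 vehicle against T16 and 1 between the doses at T20. Of all 11048 genes, 580 were then higher and 431 lower for the former, against 514 and 420 in the fit used above. Between the doses 32 were higher and 27 lower. A filter at the 75th percentile gave 12 and 1 in the same comparisons and 0 for the T4 vehicle against T0, since CENPA did not enter it. Of all 5565 genes it kept, 494 were higher and 325 lower for the T20 vehicle against T16, and 30 and 27 between the doses. For the T4 vehicle against T0, 208 were higher and 293 lower. Without a filter the counts were 0 for 5 µM at T4, 1 at T20, 1 for T16 against T0 and 3 for the T20 vehicle against T16. Of all 22260 genes, 264 were then higher and 308 lower for 5 µM at T4, and 519 and 446 at T20. For T16 against T0, 509 were higher and 660 lower, and for the T20 vehicle against T16, 347 and 237. A fit of only the groups compared gave 0, 0, 1 and 0 genes of the set in the same order, with fewer degrees of freedom. Calls over all genes are not given for that fit, so these counts cannot be set beside a share of all genes. Values as deposited and a filter on the highest group mean left every count within 1.5 times.

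No pairing by replicate number was seen, since samples of 1 number did not deviate together. Their correlations were -0.14 to 0.11, against -0.14 to 0.12 between different numbers. With 3 arrays per group, this does not settle whether samples of 1 number shared a culture or day. With the number as a replicate block, 2 passed for 5 µM at T4, 3 at T20, 4 for T16 against T0 and 5 for the T20 vehicle against T16. Of all 11048 genes, 382 were then higher and 435 lower for 5 µM at T4, and 712 and 602 at T20. For T16 against T0, 680 were higher and 883 lower, and for the T20 vehicle against T16, 484 and 395. Leaving out each array in turn gave 0 to 2 for 5 µM at T4, 1 to 4 at T20, 1 to 5 for T16 against T0, 0 to 1 for the T4 vehicle against T0, 3 to 5 for the T20 vehicle against T16 and 0 to 1 for the T20 against the T4 vehicle. Calls over all genes are not given for these fits. Whether the set lost more calls than all genes did was therefore not tested. At T4, CDC20 lost its call without T4 vehicle replicate 1 or 3 or 5 µM replicate 1 (adjusted p = 0.0896, 0.0792 and 0.147, limma), and CDC25C without any vehicle array or 5 µM replicate 1 or 3 (adjusted p from 0.0598 to 0.126). At T20, PLK1 lost its call without T20 vehicle replicate 2 or 3 or 5 µM replicate 1 (adjusted p = 0.0870, 0.0592 and 0.111), and CDC20 without vehicle replicate 2 or 3 or any 5 µM array (adjusted p from 0.0511 to 0.137). All kept their direction in these fits.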
